A study of Homo sapiens with 6 samples.

Results

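The dual-specificity phosphatase genes DUSP1, DUSP2, DUSP4, DUSP5, DUSP6 and DUSP10 and the Ras pathway inhibitor genes SPRY2, SPRY4, SPRED1 and SPRED2 were followed in macrophage-like THP-1 cells given the chemokine CXCL10. They were chosen by name, as 10 of the 57316 gene names in the count files. All 10 were detected in each library and passed the filter on low counts. THP-1 is a human monocytic leukaemia cell line. Both groups had been exposed to the phorbol ester PMA at 100 ng/ml for 48 h, which gives the cells macrophage features. Recombinant CXCL10 at 100 ng/ml (3 libraries) or control solution (3 libraries) was then added for 24 h, and polyadenylated RNA was sequenced. The libraries carry the numbers 1, 3 and 4 in both groups, and nothing in the labels says whether they came from separate cultures. The p-values therefore describe the spread among these 6 libraries, part or all of which may be technical.

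ERK is the last kinase of the Ras, Raf and MEK cascade and is active when a threonine and a tyrosine of its activation loop carry phosphate. Dual-specificity phosphatases remove both phosphates, while Sprouty and SPRED proteins act further up and limit the activation of Ras and Raf. Many of these genes are themselves transcribed when ERK is active, so their transcripts are widely read as a record of earlier pathway activity. PMA activates protein kinase C, which feeds into this cascade, and CXCL10 acts through CXCR3, a G protein-coupled receptor.

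The 5-prime flanks of 3 members are shown because DUSP1 had the widest spread between libraries on the log2 scale and SPRY2 and DUSP6 had the highest levels. Each run is the 250 bases before the RefSeq start site (GRCh38.p14), read 5′ to 3′ on the gene's own strand, with capitals for matches on either strand to the cyclic AMP response element TGACGTCA, its core TGACG, the AP-1 site TGANTCA, the ETS site CCGGAA and the CArG box of serum response elements.
DUSP1, chr5:172771196-172771445, minus strand: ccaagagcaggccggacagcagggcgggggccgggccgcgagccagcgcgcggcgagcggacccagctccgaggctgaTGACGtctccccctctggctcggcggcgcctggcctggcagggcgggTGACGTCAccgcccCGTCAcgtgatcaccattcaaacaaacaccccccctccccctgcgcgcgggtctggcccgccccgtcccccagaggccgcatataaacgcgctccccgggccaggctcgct
SPRY2, chr13:80341127-80341376, minus strand: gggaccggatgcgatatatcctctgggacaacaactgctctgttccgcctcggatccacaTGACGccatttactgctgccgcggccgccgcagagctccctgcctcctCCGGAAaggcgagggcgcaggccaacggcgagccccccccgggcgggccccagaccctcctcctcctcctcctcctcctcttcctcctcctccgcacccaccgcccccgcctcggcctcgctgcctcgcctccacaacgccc
DUSP6, chr12:89352502-89352751, minus strand: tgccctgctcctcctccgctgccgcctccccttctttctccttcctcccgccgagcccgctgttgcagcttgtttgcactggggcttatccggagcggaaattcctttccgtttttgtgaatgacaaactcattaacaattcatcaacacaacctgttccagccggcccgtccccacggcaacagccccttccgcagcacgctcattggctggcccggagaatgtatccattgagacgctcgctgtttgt

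The promoter table held 8 of the 10 members with 12 start sites, and had no entry for DUSP4 and DUSP5. The full element TGACGTCA, whose letters contain the core on both strands, was found before 1 of the 12 start sites, that of DUSP1, and in 1.63% of 34943 promoter windows of the same length. It began 125 bases before the DUSP1 start site. The core TGACG was found before start sites of DUSP1, SPRY2 and SPRY4 and in 21.2% of all windows. The ETS site CCGGAA was found for SPRY2 and in 14.5% of windows, and shorter ETS matches were not searched. The AP-1 site and the CArG box, present in 6.59% and 1.16% of windows, had no match before any of the 12 start sites. DUSP1 and SPRED2 also had the letters TATAAA, as did 10.8% of windows. For SPRED2 they stood only before an inner start site, 65859 bases from the outer start of the gene. These matches describe letters only.

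The gene counts summed to between 34.8 and 41.0 M reads per library. Control replicate 4 stood apart: its mean correlation with the other libraries over log2 CPM was 0.974, against 0.983 to 0.986 for the rest, and ribosomal protein genes took 11.8% of its reads against 7.07% to 9.08%. Of the 12 macrophage markers, 11 passed the filter, led by CSF1R, the receptor for macrophage colony-stimulating factor, with 1496 ± 47.3 CPM in controls (SD, n = 3). By edgeR 0 of the 11 were called, but 3 had an unadjusted p under 0.05, beside 7.14% of all genes: ITGAM and LYZ, higher with CXCL10, and TYROBP, lower. ITGAM, LYZ and CD163 were higher without overlap between groups, beside 12.2% of all genes tested without overlap in either direction. Over the 11 markers the median log2 fold change was -0.08, with 5 above 0 and 6 below. The most changed in fit was LYZ, the lysozyme gene, at 8.96 ± 2.45 CPM in controls and 16.1 ± 1.60 CPM with CXCL10 (adjusted p = 0.683). CD68 had at most 5 reads, and 81.6% of its exon length lies under other genes of the same strand, where the counting drops reads. Of 16 markers of other cell types, 7 passed the filter and MS4A1, EPCAM and HBA1 had 0 reads in all libraries. Their summed level was 430 to 571 CPM in controls and 422 to 476 CPM with CXCL10. Most of it came from PECAM1, which monocytes also express, and GNLY. Of these 7, 0 were called, and GNLY (lower) and VWF (higher) had an unadjusted p under 0.05. COL1A1 and VWF were higher with CXCL10 without overlap between groups. Of 9 markers of proliferating or immature monocytic cells, 8 were tested and 0 called by edgeR (median log2 fold change 0.11), with TOP2A, higher, at an unadjusted p under 0.05. For 0 of these 8 were the groups without overlap. The 13 mitochondrial mRNAs had 0 called and a median of -0.02, with MT-ND4L and MT-ATP8, both higher, at an unadjusted p under 0.05. MT-ND3, MT-ND4L and MT-ATP8 were without overlap between groups, 2 of them higher and 1 lower. The part of these marker genes in the members' values was not tested.

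Levels of the members were compared as TPM, computed over all genes in the files and scaled by the exon length of each gene. That length covers all annotated exons of a gene, which a single transcript may not hold, so the order of genes is approximate. SPRY2 and DUSP6 stood highest, with 484 and 397 TPM over the 6 libraries, and ranked 263rd and 320th of 30869 genes with reads. Together they made up 67.2% of the summed TPM of the 10 genes. Next came DUSP10 with 161 TPM, then DUSP5 with 65.6, DUSP1 with 57.4, DUSP4 with 48.8, SPRED2 with 44.2 and SPRED1 with 32.4. SPRY4 and DUSP2 stood lowest, at 11.4 and 10.3 TPM, so that the levels spanned 47.1-fold. The ranges over the 6 libraries were separate at 3 steps of this order: between DUSP6 and DUSP10, between DUSP10 and DUSP5, and between SPRED1 and SPRY4. SPRY2 was above DUSP6, and SPRED2 above SPRED1, in 6 of 6 libraries although their ranges overlapped. The order of DUSP5, DUSP1, DUSP4 and SPRED2 was not the same in every library, and SPRY4 exceeded DUSP2 in 3 of 6. For DUSP6, 28.6% of the exon length lies opposite the noncoding gene AC024909.1, which itself had 12 to 33 reads. Reads on that stretch were left out of both genes, so the level of DUSP6 may be too low. How far this sets its place below SPRY2, at a geometric mean ratio of 1.22, was not tested. No other member shared exon bases with another gene.

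**Figure D1:**
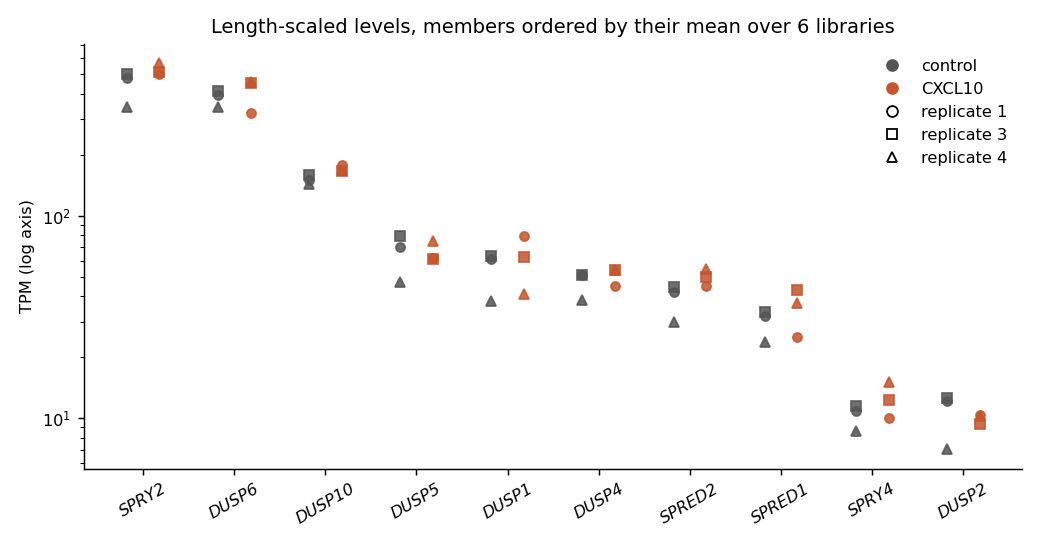
Length-scaled level in TPM (vertical log axis) of each gene (horizontal axis, ordered by the mean over 6 libraries) in control (grey) and CXCL10 (orange) libraries, with the replicate number as the symbol. SPRY2, DUSP6 and DUSP10 lie above the other 7 genes in every library, and SPRY4 and DUSP2 lie lowest.

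CXCL10 against control asked whether a day with the chemokine left a difference in the transcripts that damp ERK signalling. In counts scaled by TMM factors and library size (CPM), the groups overlapped for all 10 genes. Over all genes tested, 12.2% were without overlap in either direction. By edgeR's quasi-likelihood test, 0 of 10 passed after Benjamini-Hochberg adjustment over 16531 genes (lowest adjusted p = 0.765, for SPRED2). The same test called 0.0% of all genes, so the members' count does not set them apart. At an unadjusted p under 0.05, edgeR counted 0 members, against 7.14% of all genes, and DESeq2 also counted 0, against 7.33%. Limma-voom was also run with weights for library quality, which were lowest for control replicate 4 (0.32) and highest for CXCL10 replicate 4 (3.01). CXCL10 replicates 1 and 3 had weights of 0.49 and 0.50, so the CXCL10 values of that fit rest mostly on replicate 4. It gave 4 members an unadjusted p under 0.05 (DUSP1, DUSP2, SPRY4 and SPRED2), against 18.3% of all genes. After adjustment 0 passed by limma-voom with these weights (lowest adjusted p = 0.125). Log2 fold changes fitted by edgeR ran from -0.22 for DUSP2 to 0.21 for SPRED2, with 6 genes above 0 and 4 below. Their median was 0.03, beside 0.02 over all genes tested. The 95% interval stayed within a 1.5-fold change in both directions for 9 genes, all but DUSP2, as it did for 46.5% of all genes tested. With 1 library left out at a time, the sign changed for 7 members, all but DUSP2, SPRY2 and SPRED2. Differences smaller than these intervals were not detectable with 3 libraries per group, and larger ones could also go uncalled. On simulated counts the adjusted test called 10 of 50 genes with a 1.5-fold change. The 0 calls alone therefore do not exclude changes of that size.

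**Figure D2:**
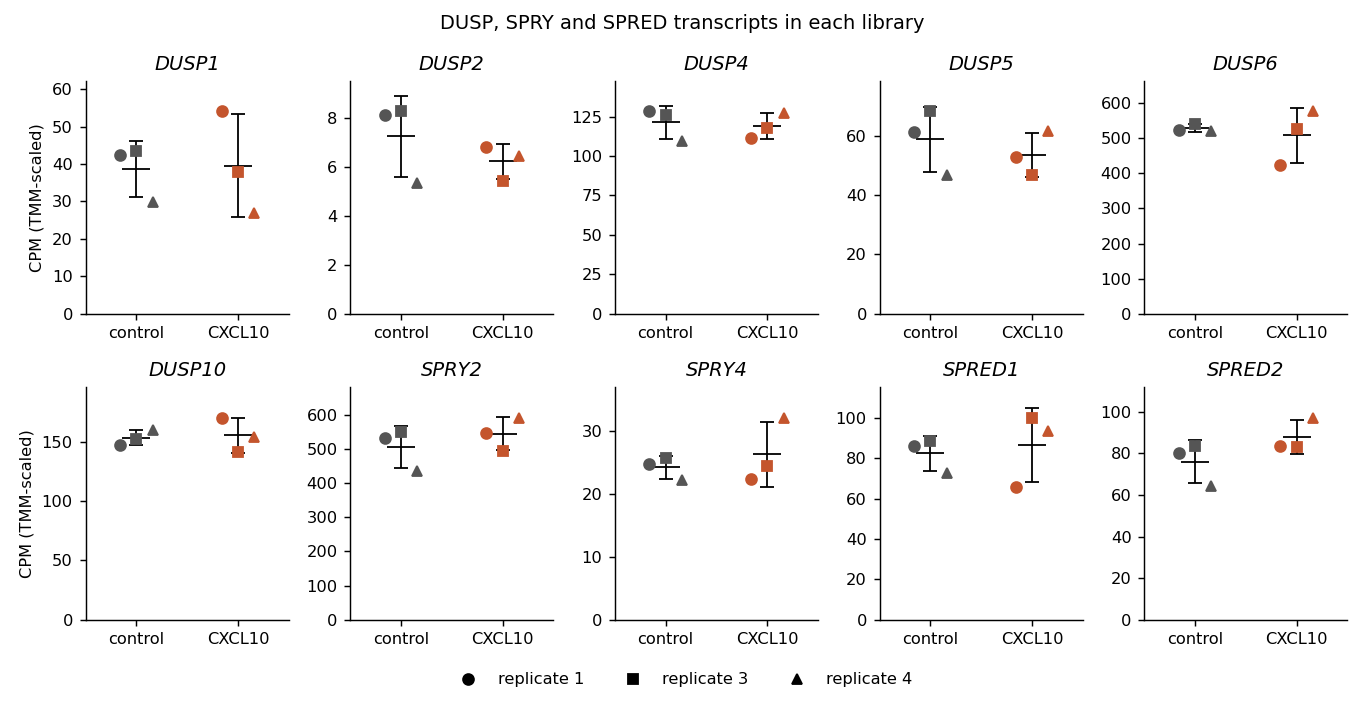
TMM-scaled CPM (vertical axes from 0) of each gene in the 3 control and 3 CXCL10 libraries, with the replicate number as the symbol and bars for mean and SD. The groups overlap in all 10 panels. As a ratio of highest to lowest, the widest spread is that of DUSP1 with CXCL10, from 26.8 to 54.1 CPM.

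Of the inducible phosphatases of the nucleus, DUSP1 acts on p38, JNK and ERK and is known as an early response gene that limits inflammatory cytokines in macrophages. It measured 42.4, 43.4 and 29.96 CPM in control replicates 1, 3 and 4, and 54.1, 37.8 and 26.8 CPM in CXCL10 replicates 1, 3 and 4. The highest and the lowest library were both CXCL10 libraries, 2.02-fold apart, so the controls lay inside the range of the treated group. In edgeR's fit the log2 fold change was 0.03 ± 0.22 (± SE, here and for the fold changes that follow, adjusted p = 0.982), with an interval from -0.44 to 0.51. Its within-group SD of 0.42 on the log2 scale was larger than that of 78.4% of the genes tested. The sign depended on the libraries and their weights. The log2 fold change was -0.26 without CXCL10 replicate 1, -0.11 without control replicate 4 and 0.25 without CXCL10 replicate 4. It was -0.45 by limma-voom with library quality weights, below the interval of edgeR's fit. Among the members this was the lowest unadjusted p by weighted limma-voom (0.00694, adjusted p = 0.125). The library lowest in DUSP1, CXCL10 replicate 4, had the largest weight there.

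DUSP2 is another nuclear phosphatase of immune cells and was the least abundant member, with 178 to 314 reads per library. It measured 8.13, 8.25 and 5.32 CPM in controls and 6.80, 5.43 and 6.45 CPM with CXCL10. Control replicates 1 and 3 were above all CXCL10 libraries, and control replicate 4 was below them all. EdgeR's log2 fold change for DUSP2 was -0.22 ± 0.21 (adjusted p = 0.831), with an interval from -0.66 to 0.22. Without control replicate 4 it was -0.39 ± 0.19, with an unadjusted p of 0.0474 and an adjusted p of 0.997 by edgeR, in a fit where 3.79% of all genes had an unadjusted p under 0.05.

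DUSP4, an inducible nuclear phosphatase of ERK and JNK, measured 128, 126 and 109.5 CPM in controls and 111, 118 and 128 CPM with CXCL10. The groups covered nearly the same range, and edgeR's log2 fold change was -0.03 ± 0.13 (adjusted p = 0.974). DUSP5, which is selective for ERK and holds it in the nucleus, measured 61.5, 68.4 and 47.0 CPM in controls and 52.9, 46.9 and 61.6 CPM with CXCL10. Control replicate 4 and CXCL10 replicate 3 were its low libraries, 1 in each group. The log2 fold change of DUSP5 was -0.13 ± 0.16 (adjusted p = 0.871 by edgeR), and it was -0.27 without control replicate 4 but 0.00094 without control replicate 3 and -0.04 without CXCL10 replicate 3.

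DUSP6, the cytoplasmic phosphatase selective for ERK and the transcript most often taken as a readout of that pathway, measured 524, 541 and 521 CPM in control replicates 1, 3 and 4. With CXCL10 it measured 423, 527 and 577 CPM. The controls were close together, 1.04-fold from lowest to highest, and lay inside the wider 1.36-fold range of the CXCL10 libraries. EdgeR's log2 fold change was -0.06 ± 0.14 (adjusted p = 0.945), and the interval from -0.35 to 0.24 corresponds to a ratio between 0.785 and 1.18. DUSP10, which prefers JNK and p38 over ERK, measured 147, 153 and 160.2 CPM in controls and 170.5, 141 and 154 CPM with CXCL10. The fitted log2 fold change of DUSP10 was 0.02 ± 0.13 (adjusted p = 0.983 by edgeR), the smallest in size of the 10.

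Both Sprouty transcripts had fitted values slightly above 0, with no difference beyond the spread between libraries. SPRY2, a membrane-bound inhibitor of receptor signalling to Ras, measured 532, 551 and 436 CPM in controls and 546, 495 and 592 CPM with CXCL10. The low library was control replicate 4, and edgeR's log2 fold change, 0.11 ± 0.13 (adjusted p = 0.879), was 0.01 without it and 0.19 at the highest with another library left out. SPRY4, a related inhibitor, measured 24.8, 25.7 and 22.2 CPM in controls and 22.3, 24.5 and 32.2 CPM with CXCL10. CXCL10 replicate 4 alone was above the control range. For SPRY4 edgeR's log2 fold change was 0.12 ± 0.16 (adjusted p = 0.889), and it was -0.05 without that library.

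The SPRED proteins bring neurofibromin, a Ras GTPase-activating protein, to the membrane. SPRED1 measured 86.0, 88.7 and 72.7 CPM in controls and 66.0, 100.2 and 93.7 CPM with CXCL10. CXCL10 libraries were both the lowest and the highest, and edgeR's log2 fold change was 0.07 ± 0.16 (adjusted p = 0.941). It was 0.23 without CXCL10 replicate 1, -0.01 without control replicate 4 and -0.04 without CXCL10 replicate 3. SPRED2 measured 80.0, 83.7 and 64.4 CPM in controls and 83.4, 83.3 and 97.3 CPM with CXCL10. Here 2 CXCL10 libraries lay just below control replicate 3, while control replicate 4 was low and CXCL10 replicate 4 high. SPRED2 had the lowest p-value of the members, with a log2 fold change of 0.21 ± 0.14 (unadjusted p = 0.157, adjusted p = 0.765 by edgeR), and leaving out single libraries gave values between 0.11 (control replicate 4 left out) and 0.30.

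**Figure D3:**
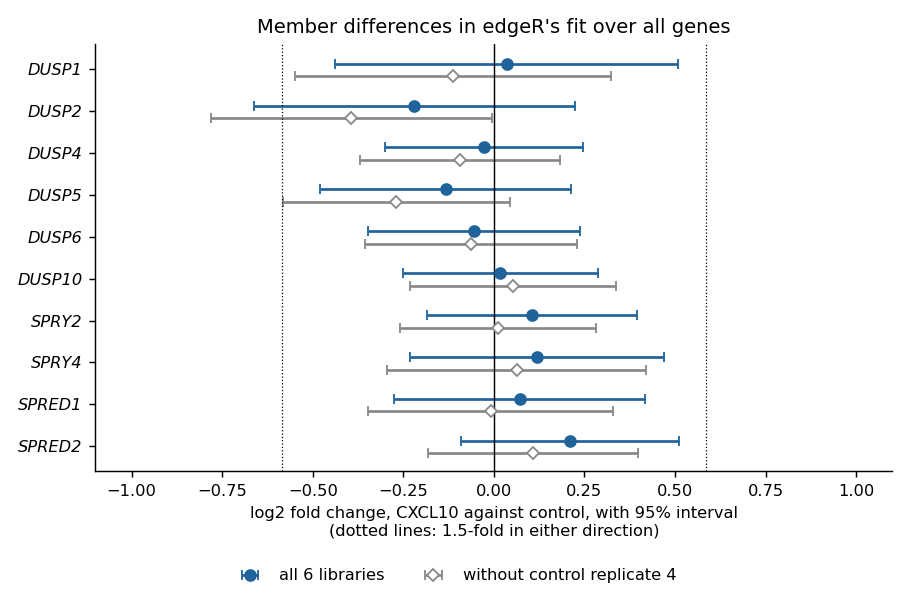
Log2 fold change of each gene, CXCL10 against control, with its 95% interval (horizontal axis) in edgeR's fit with all 6 libraries (blue circles) and without control replicate 4 (open diamonds). Every interval of the 6-library fit spans 0, and the lower end of that of DUSP2 passes the dotted line of a 1.5-fold change.

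Whether the groups overlapped depended on the unit for 2 members. In TPM, which has no correction for composition, DUSP10 lay between 144 and 159 in controls and between 165 and 178 with CXCL10 (two-sided exact permutation p = 0.1, the smallest possible with 3 against 3 libraries), and SPRED2 was also without overlap but only just, with 44.68 TPM in the highest control and 44.71 TPM in the lowest CXCL10 library. On that scale all 3 CXCL10 libraries were above all 3 controls for 14.7% of the genes tested and below them for 2.61%. Summed by role, the nuclear phosphatases DUSP1, DUSP2, DUSP4 and DUSP5 gave 177 ± 40.8 TPM in controls and 187 ± 8.40 TPM with CXCL10. The Sprouty genes gave 453 ± 86.7 and 538 ± 37.4 TPM, and the SPRED genes 68.7 ± 13.2 and 84.7 ± 12.9 TPM (SD, n = 3 each). For these sums the two-sided exact permutation p was 0.9 (nuclear phosphatases), 0.2 (Sprouty) and 0.3 (SPRED). SPRY2 made up most of the Sprouty sum, with 484 TPM over the 6 libraries against 11.4 TPM for SPRY4. Control replicate 4 had the lowest sum in all 3 roles.

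Within groups, libraries differed in different genes. Control replicate 4 was the lowest of the 6 libraries in CPM for 5 members, DUSP2, DUSP4, SPRY2, SPRY4 and SPRED2, and for 29.3% of all genes tested. Relative to the mean of the 6 libraries, it was at -0.34 on the log2 scale for DUSP1 and SPRED2, but at 0.01 for DUSP6 and 0.06 for DUSP10. CXCL10 replicate 1 was highest for DUSP1 (0.51) and DUSP10 (0.15) and lowest for DUSP6 (-0.29) and SPRED1 (-0.34). CXCL10 replicate 4 showed DUSP1 at -0.50 with SPRY4 at 0.36 and SPRED2 at 0.26. The part of RNA quality or of the high ribosomal protein share of control replicate 4 in these values was not tested.

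**Figure D4:**
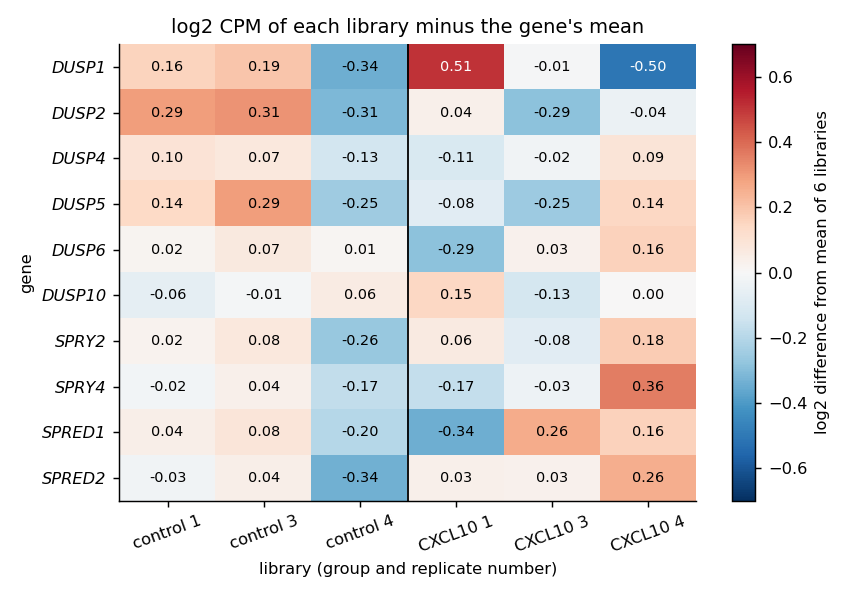
Log2 CPM of each library (columns, by group and replicate number) minus the mean of the 6 libraries for each gene (rows), with red above and blue below the mean. DUSP1 runs from 0.51 in CXCL10 replicate 1 to -0.50 in CXCL10 replicate 4, while DUSP10 stays between -0.13 and 0.15.

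Among the 45 pairs of members, SPRY2 and SPRED2 had the most alike pattern over the 6 libraries. Their Pearson r was 0.93 and Spearman's rho 0.94 in log2 CPM (exact permutation p = 0.00972 and 0.0167, or 0.344 and 0.438 after Benjamini-Hochberg adjustment over the 45 pairs). That relation rested on the outer libraries, since r was 0.05 without the 2 libraries farthest from the median of SPRY2. DUSP5 was the member most like DUSP2 (r = 0.89, rho = 0.77, exact permutation p = 0.0333 and 0.103, adjusted 0.429 and 0.463), and r was 0.77 without the 2 farthest libraries. No pair passed after adjustment. Of 8753 other genes with at least 10 CPM, those most like DUSP6 over the 6 libraries were MED28 (r = 0.99), ARL1 and SPTLC1 (r = 0.97 each), picked as the highest of all these values. The exact permutation p for MED28 was 0.00139, the smallest that 6 libraries allow, which cannot pass an adjustment over so many genes.

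The rest of the pathway was read from lists chosen by textbook role. Of 12 other MAP kinase phosphatases and related genes, 0 passed edgeR's adjusted test. An unadjusted p under 0.05 was found for 0 of them, beside 7.14% of all genes, and their median log2 fold change was -0.01. Most abundant among them was PTPN7, a tyrosine phosphatase of haematopoietic cells that acts on ERK, at 436 ± 31.6 CPM in controls against 428 ± 46.2 CPM with CXCL10 (SD, n = 3 each). DUSP7 had 204 ± 21.5 and 203 ± 16.7 CPM, and DUSP3, a small phosphatase of ERK and JNK, had 142 CPM on average in controls and 138 with CXCL10. DUSP16, a JNK phosphatase named whatever its level, had 4.28 ± 0.241 and 3.90 ± 0.522 CPM. DUSP18, named after its values were seen, was the 1 gene of the list without overlap between groups, beside 12.2% of all genes tested. DUSP18 measured 5.15 ± 0.615 CPM in controls against 3.95 ± 0.710 CPM with CXCL10. Its log2 fold change of -0.38 ± 0.21 did not pass (adjusted p = 0.716 by edgeR). The list's median was 0.10 without control replicate 4. The other Sprouty and SPRED genes were close to absent: SPRED3 had 72 to 114 reads per library, SPRY1 0 to 22, and SPRY3 at most 1. SPRED3 had no overlap between groups, at 2.59 ± 0.341 CPM in controls against 2.10 ± 0.121 CPM with CXCL10, as did 12.2% of all genes tested, and its log2 fold change of -0.30 ± 0.24 did not pass (adjusted p = 0.799 by edgeR).

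Over the 25 genes of the Ras to ERK cascade, from adaptors to kinases, the median log2 fold change was 0.12, with 17 above 0, 8 below and 0 called by edgeR. RPS6KA1, a kinase activated by ERK, was its most abundant gene, at 489 ± 26.4 CPM in controls against 467 ± 45.6 CPM with CXCL10. GRB2, the adaptor that brings the exchange factor SOS to receptors, had a log2 fold change of 0.15 ± 0.14, and MAP2K2, the kinase MEK2, had -0.30 ± 0.15 (SE, adjusted p = 0.829 and 0.694). HRAS, chosen after its values were seen, was the 1 gene of the list with an unadjusted p under 0.05, at 59.6 ± 12.2 CPM in controls and 44.6 ± 4.05 CPM with CXCL10 (adjusted p = 0.683 by edgeR). HRAS and MAP2K1 were lower with CXCL10 without overlap between groups, beside 12.2% of all genes tested without overlap in either direction. The list's median moved in both directions: it was 0.04 without control replicate 4, 0.06 without CXCL10 replicate 3 and 0.03 after removal of the trend with gene length, but 0.21 without control replicate 3 and also 0.21 with scaling by library size only.

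Of 14 other brakes on Ras and ERK, 0 passed, and the median was 0.15. Single libraries moved that median: leaving out CXCL10 replicate 3 gave 0.015, control replicate 4 gave 0.067, CXCL10 replicate 1 gave 0.25 and control replicate 3 gave 0.28. CBL, higher with CXCL10, and LZTR1, lower, were without overlap, beside 12.2% of all genes tested. RASA1, a Ras GTPase-activating protein also named after its values were seen, had the 1 unadjusted p under 0.05, with 51.2 ± 8.92 and 70.1 ± 17.5 CPM (adjusted p = 0.683 by edgeR). Abundant members such as PPP2CA, a catalytic subunit of protein phosphatase PP2A, and PEBP1, an inhibitor of Raf, had log2 fold changes of -0.09 ± 0.14 and -0.05 ± 0.12. The 16 genes of the p38 and JNK cascades, whose kinases are the substrates of DUSP1 and DUSP10, had a median of 0.08 (0.03 to 0.13 with single libraries left out), with 0 called and 0 at an unadjusted p under 0.05. MAPKAPK2, a kinase downstream of p38, had 254 ± 23.1 CPM in controls and 265 ± 30.4 CPM with CXCL10.

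ERK-responsive transcripts were not called either: 0 of 21 tested genes passed edgeR's adjusted test, and their median log2 fold change was -0.05 (-0.08 to 0.0013 with single libraries left out), with 9 above 0 and 12 below. PLAUR, the urokinase receptor gene, measured 871 ± 72.1 CPM in the control group against 791 ± 58.3 CPM with CXCL10, and PHLDA1 had 680 ± 33.5 and 628 ± 62.9 CPM. MCL1, a survival factor of the BCL2 family, had 565 ± 14.9 and 577 ± 105 CPM. The groups did not overlap for 4 of the 21, IER2, FOSL1 and ETV4 on the lower side and EGR3 on the higher, beside 12.2% of all genes. IER2, an early response gene, had the 1 unadjusted p under 0.05 (log2 fold change -0.31 ± 0.14, adjusted p = 0.692 by edgeR), beside 7.14% of all genes. IER2, FOSL1, ETV4 and EGR3 were named after their values were seen.

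**Figure D5:**
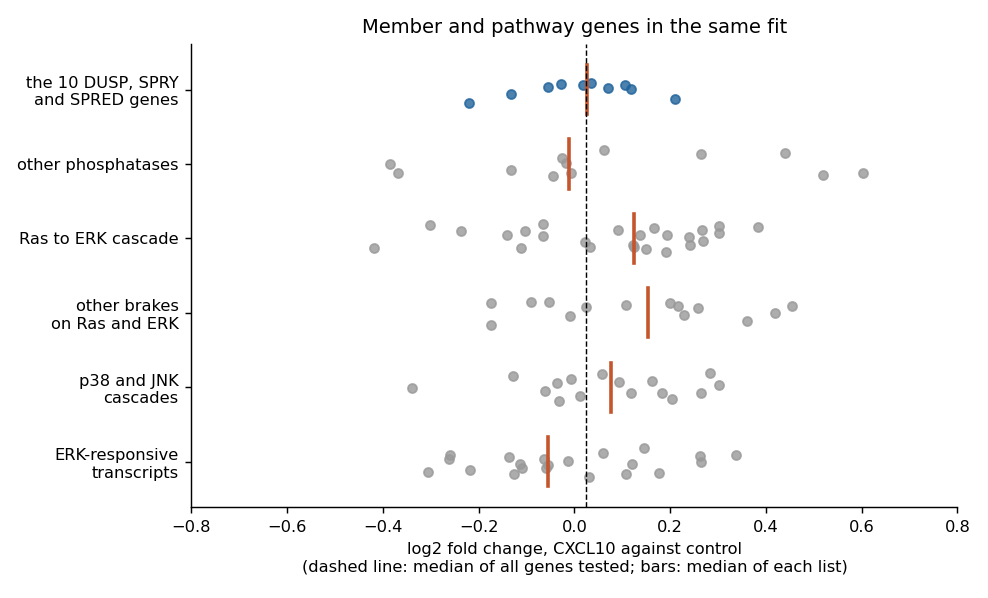
Log2 fold change, CXCL10 against control (horizontal axis), of each tested gene in the 10 DUSP, SPRY and SPRED genes (blue) and 5 pathway lists (grey, rows), with bars for list medians and a dashed line for the median of all genes tested at 0.02. The medians lie between -0.05 for the ERK-responsive transcripts and 0.15 for the other brakes, and no gene shown passed the adjusted test.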

How the data were processed

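Per the file headers, the authors counted raw reads per gene name with featureCounts 2.0.6 on GENCODE 30 exons, 1 library to a file. Trim Galore, STAR, Subread and the build hg38 are named in the submitters' processing notes. Both mates of a pair were counted, no strand was set although the kit is a stranded one per the labels, and reads over several genes or places were left out, so 1 fragment gives up to 2 reads and reads of antisense genes cannot be told apart.

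These counts went into edgeR 4.0.16 (R 4.3.3) with filterByExpr, TMM factors and a quasi-likelihood fit on group with all 6 libraries. P-values were adjusted by Benjamini-Hochberg for the 16531 genes tested, at a threshold of 0.05. Standard errors (SE), given after ± for log2 fold changes, come from the fold change and its F statistic; ± after CPM or TPM is an SD over 3 libraries. CPM used filtered totals times TMM factors. TPM used the exon lengths in the files. Counting and sampling error is included in the fit, and library totals were 34.8 to 41.0 M reads. On simulated counts for this comparison, over 16531 genes, calls were made for 10 of 50 genes at a 1.5-fold change, for 34 of 50 at 2-fold and for 45 of 50 at 4-fold, with 6 false calls. The simulated spread was set by the level of a gene alone, and no simulated library stood apart as control replicate 4 did. Rates for the real counts may therefore differ. Alternatives were other scalings and filters, DESeq2 1.42.0, limma 3.58.1 (voom, with and without library weights), a replicate block, removal of the length trend, halved counts, a threshold of 0.1 and each library left out.

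The members and the gene lists were chosen with earlier results of these data known. All members are named. Each other list gives its 3 most abundant tested genes at most, DUSP16 and the other Sprouty and SPRED genes are named at any level. Further genes, such as those given for an unadjusted p under 0.05 or for groups without overlap, were chosen after their values were seen. Promoter sequences are from RefSeq (GRCh38.p14).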

Additional observations from a re-analysis of the deposited data

How the results depend on the processing

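No alternative called any of the 10 members. Over all genes, edgeR called 0 with all 6 libraries, 137 with no filter on low counts (45 higher and 92 lower), and limma-voom with library quality weights called 42 (11 higher and 31 lower). The causes were not tested. With those weights 4 members, DUSP1, DUSP2, SPRY4 and SPRED2, had an unadjusted p under 0.05, beside 18.3% of all genes, and the lowest adjusted p among them was 0.125. Of 170 member values under 17 alternatives, 151 kept their sign and 19 changed it. DUSP1 had 5 of these: -0.0058 by limma-voom, -0.45 with quality weights, -0.0025 with the replicate block, -0.11 without control replicate 4 and -0.26 without CXCL10 replicate 1. Scaled by library size alone, which moved the median of all genes from 0.02 to 0.10, DUSP4 was at 0.048 and DUSP6 at 0.024. DUSP6 was at 0.049 with quality weights, and SPRED1 at -0.020 with the length trend removed. With single libraries left out, log2 fold changes ran from -0.26 to 0.25 for DUSP1, -0.39 to -0.10 for DUSP2, -0.094 to 0.017 for DUSP4, -0.27 to 0.00094 for DUSP5, -0.16 to 0.061 for DUSP6, -0.054 to 0.091 for DUSP10, 0.01 to 0.19 for SPRY2, -0.051 to 0.22 for SPRY4, -0.040 to 0.23 for SPRED1 and 0.11 to 0.30 for SPRED2. The replicate numbers were not taken as pairs, since the labels name no shared culture. Deviations of same-numbered libraries from their group means correlated at 0.03, 0.02 and -0.05. With 3 libraries per group and control replicate 4 standing apart, these correlations cannot decide whether the libraries were paired. The replicate block called 0 genes, as did the fit without it, which says nothing about pairing. DUSP6 and SPRY2 had at least 14575 reads in each library, and DUSP2 at least 178.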
